A study of Drosophila melanogaster with 11 samples.

Results

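The weak MACS peaks are the stretches of the genome that the peak caller MACS found in an m8 DamID library of Drosophila embryos and that hold fewer than 20 RPM, where RPM is the number of reads of the peak per 1000000 reads of the library. The rule took every peak of the deposited MACS table kept under 20 RPM, which gave 1310 peaks. The other MACS table of the same library holds 4209 peaks above 20 RPM, called strong peaks here, so that weak peaks were 1310 of 5519 MACS peaks (23.7%). The names of the 2 tables also give different cuts, 25 for the weak and 20 for the strong peaks, whose meaning is not explained there. In every comparison of weak with strong peaks, RPM and this cut cannot be told apart. A weak peak was called an extra weak site where at least 1 gene it names is also named by a strong peak, and otherwise a peak of a gene bound weakly only. The members were chosen by RPM, so that every RPM below is a description.

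The study used ChIP and DamID to map Su(H), the DNA-binding effector of Notch, and the repressors m5 and m8 of the E(spl) complex on the embryo's genome, in 11 libraries of 6 conditions. The peak tables used here were taken to be of the un-driven m8 DamID. Their column name gives m8 DamID and no Gal4 driver, but does not itself say un-driven. The series also has m8 DamID with pros-Gal4. In the un-driven condition a UAS transgene without Gal4 supplies the Dam fusion of m8 at a low level. Whole embryos of stage 9 to 16 kept at 26 °C were used. The tables hold 1 of the 2 libraries of this condition, and it was not given which of them. None of the 11 libraries is of unfused Dam. Marks due to m8 can therefore not be told apart from those of Dam alone. With 1 library there was no replicate error, so that no p-value is given, and the 95% intervals (Wilson for shares, exact Poisson for the RPM of a peak) cover counting error only. Whole embryos mix all tissues of these stages, so that a weak mark in many cells and a strong mark in few cells cannot be told apart.

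The repressor m8 belongs to the helix-loop-helix family of Enhancer of split proteins. Notch signaling turns on their genes, and in the nervous system they keep cells from taking a neural fate. DamID uses a fusion of the protein with Dam, a methyltransferase of bacteria, which methylates the adenine of GATC near the places the protein visits. DpnI cuts the methylated GATC sites, and the fragments between them are amplified by PCR and sequenced, so that the edges of a marked stretch can fall on GATC sites.

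The positions in the tables matched Release 6 of the genome well on 2L alone and in part on 3L. Below 22 Mb of 2L, 174 of 175 pairs of a weak peak and the gene it is said to lie in overlapped in Release 6 (99.4%). The share was 57.6% on 3L, 6.52% on X, 6.25% on chromosome 4 and 0% on 2R and on 3R. Sequence and annotation were for this reason read on 2L only, for 233 weak and 750 strong peaks, and elsewhere gene names and distances within the tables were used. Names with a bracket had lost what follows it. Such a name stood in 45 weak peaks, and 31 of these read Su, 28 of them on unplaced sequence.

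The edges of weak peaks are shown first, since a DamID fragment ends at GATC. Each line gives 60 bases of the plus strand of Release 6 around an edge of a weak peak of 2L, with GATC in capitals and the first or last base of the peak at the middle. The peaks are the 3 of highest RPM at listed genes bound weakly only (ial, Wnt6, gcm2), and that of CycE. With them are 3 extra weak sites of listed genes, among those of highest RPM (S, Wnt4 and wg, Ca-beta). A peak at esg had the same 19.2 RPM as those of Wnt4 and wg and of Ca-beta and is not shown. Both edges are given for each peak, except the left edge of ial, which runs into an exon. GATC is in 6 of the 13 lines. For Wnt6 the peak starts on the G of GATC, and for CycE it ends on the C, while their other edges are 233 bp and 119 bp from the nearest site. For gcm2 both edges lie near a site, at 14 and 1 bp. The right edge of ial is 347 bp from a site, and the peak at S holds no GATC at all, with edges 187 and 358 bp from the nearest one.

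ial, right edge, chr2L:10858382-10858441: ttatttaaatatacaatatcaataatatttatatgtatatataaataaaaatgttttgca
Wnt6, left edge, chr2L:7342030-7342089: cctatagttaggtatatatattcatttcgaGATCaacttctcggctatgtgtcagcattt
Wnt6, right edge, chr2L:7342603-7342662: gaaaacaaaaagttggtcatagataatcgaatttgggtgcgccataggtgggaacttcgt
gcm2, left edge, chr2L:9606932-9606991: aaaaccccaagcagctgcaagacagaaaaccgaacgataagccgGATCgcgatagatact
gcm2, right edge, chr2L:9607475-9607534: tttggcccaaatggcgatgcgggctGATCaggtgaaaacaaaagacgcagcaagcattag
S, left edge, chr2L:1058516-1058575: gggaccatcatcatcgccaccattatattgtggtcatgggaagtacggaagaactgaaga
S, right edge, chr2L:1059191-1059250: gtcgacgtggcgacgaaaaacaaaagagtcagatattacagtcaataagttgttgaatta
Wnt4 and wg, left edge, chr2L:7295798-7295857: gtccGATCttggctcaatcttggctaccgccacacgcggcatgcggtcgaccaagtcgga
Wnt4 and wg, right edge, chr2L:7296456-7296515: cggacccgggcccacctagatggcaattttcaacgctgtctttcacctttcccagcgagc
Ca-beta, left edge, chr2L:11188489-11188548: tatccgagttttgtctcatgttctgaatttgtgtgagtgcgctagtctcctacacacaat
Ca-beta, right edge, chr2L:11189029-11189088: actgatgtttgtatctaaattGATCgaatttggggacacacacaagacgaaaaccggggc
CycE, left edge, chr2L:15736017-15736076: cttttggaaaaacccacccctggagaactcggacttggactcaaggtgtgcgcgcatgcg
CycE, right edge, chr2L:15736764-15736823: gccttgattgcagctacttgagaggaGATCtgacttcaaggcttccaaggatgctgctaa

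The match of edges and GATC held for a part of the peaks only. On 2L a GATC lay within 20 bp of the start in 27.9% of weak peaks and of the end in 26.2%, against 25.7% and 25.7% of strong peaks and 10.5% of all positions of the arm. At least 1 edge was that close in 108 of 233 weak peaks (46.4%, interval 40.1% to 52.8%) and in 44.1% of strong peaks. The weak peaks held 2.47 GATC per kb, close to the 2.37 per kb of strong peaks and the 2.63 per kb of 2L. Being short, a weak peak held 1.29 GATC on average, against 3.23 in a strong peak. No GATC was found in 61 weak peaks (26.2%), in 33 strong peaks (4.40%) and in 34.2% of 41984 windows of 524 bp along 2L.

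Motifs that E(spl) and Hairy proteins are known to prefer were counted on both strands of the same peaks. CACGTG was in 24 weak peaks (10.3%), in 16.3% of strong peaks and in 6.28% of the windows of 524 bp. CACGCG was in 27 weak peaks (11.6%), in 30.7% of strong peaks and in 9.08% of windows. CACNAG, the N box, was in 48.5% of weak peaks, in 76.1% of strong peaks and in 47.6% of windows. Strong peaks are longer than the windows, so that counts per kb are given too. CACGTG stood at 0.206 per kb in weak peaks, 0.139 in strong peaks and 0.126 along 2L. CACGCG stood at 0.230 per kb in weak peaks, 0.279 in strong peaks and 0.191 along 2L, and CACNAG at 1.26 per kb in weak peaks, 1.27 in strong peaks and 1.31 along 2L. A match is a stretch of letters and not a site.

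Weak peaks were short, and their RPM followed their length. Their RPM lay between 6.75 and 19.7, the median was 14.0 RPM and the quartiles were 10.9 and 16.6 RPM, which is 13 to 38 reads with a median of 27 reads. The range of strong peaks was 20.3 to 1272 RPM and their median 54.0 RPM. A weak peak was 174 to 855 bp long with a median of 514.5 bp, and a strong peak 222 to 8558 bp with a median of 1106 bp. Among the weak peaks RPM and length had a Pearson's r of 0.82 and a Spearman's rho of 0.83 (n = 1310 peaks of 1 library, a description). The RPM per kb was close to the same in most of them, with a median of 26.1 and quartiles of 24.2 and 28.8. Its 90th percentile was 1.40 times its 10th percentile, against 2.97 times in strong peaks, whose median was 47.2 RPM per kb. The RPM itself spans less among weak peaks, since the limit caps it, with a 90th percentile 2.12 times its 10th percentile against 6.81 times in strong peaks. In the plot of RPM against length the weak peaks form a narrow band, and the part that the limit has in this was not tested.

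**Figure D1:**
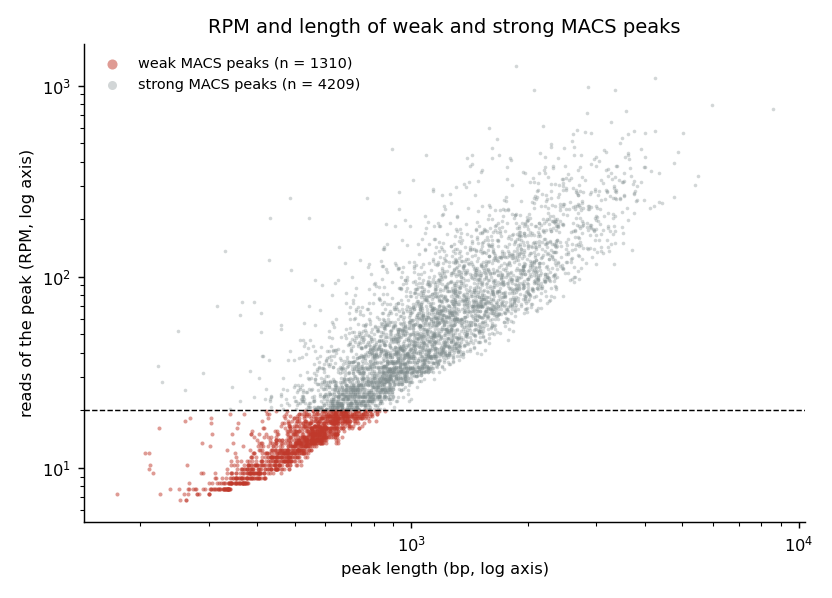
RPM against length in bp, both on log axes, for 1310 weak and 4209 strong MACS peaks of 1 library, with 1 point per peak and a dashed line at 20 RPM. The weak peaks form a narrow band from 6.75 RPM up to the line, and 1164 strong peaks are no longer than the longest weak peak of 855 bp.

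The limit of 20 RPM cut through a continuous range. Just inside it stood 54 weak peaks with 38 reads (19.7 RPM, interval 14.0 to 27.1), and just outside it 50 strong peaks with 39 reads (20.3 RPM, interval 14.4 to 27.7). Their median lengths were 662 and 661 bp, and 38 of the 54 weak peaks lay inside genes, against 38 of the 50 strong ones. The genes just inside include ush, a partner of GATA factors, S, which encodes the membrane protein Star of EGFR signaling, and for, a cGMP-dependent protein kinase. Among those just outside were Pen, an importin, and haf. At the lower end 3 weak peaks had 13 reads, of which that at Mur2B on X lay inside a gene. Only 12 weak peaks (0.916%) were denser than the median strong peak. The densest, at 71.9 RPM per kb, lay on unplaced sequence between CR41618 and CG40955, and the densest outside it at mal on X, a molybdenum cofactor enzyme, with 67.7 RPM per kb over 261 bp.

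Over 3 ranges of RPM the share of weak peaks inside genes rose slightly and that of extra weak sites rose more. Under 10 RPM there were 253 peaks with a median length of 366 bp, from 10 to 15 RPM 505 peaks of 491 bp, and from 15 to 20 RPM 552 peaks of 603 bp. Across these 3 ranges the share inside genes was 66.0%, 67.5% and 71.7%, and the share of extra weak sites was 47.8%, 52.7% and 59.4%. RPM and length move together in these ranges, and the part of each was not tested. Whether the shares differ by more than counting error was not tested either. Peaks on unplaced sequence, of which 17.6% lay inside genes and 94.5% were extra weak sites, were not set apart.

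Weak peaks were found on all chromosomes. Their share among the MACS peaks was 26.3% on X (206 weak peaks), 24.6% on 2L (247), 19.98% on 2R (195), 23.4% on 3L (270) and 23.1% on 3R (282). The intervals of X (23.3% to 29.5%) and 2R (17.6% to 22.6%) did not overlap, and those of the other large arms overlapped both. Chromosome 4, the small and largely heterochromatic chromosome, had 19 weak and 26 strong peaks, a weak share of 42.2% with a wide interval of 28.97% to 56.7%. Unplaced sequence had 91 weak and 247 strong peaks, and its weak peaks were shorter (median 418 bp) and denser (median 30.2 RPM per kb) than those elsewhere (median 523 bp and 26.0 RPM per kb). The mitochondrial genome had no weak peak and 1 strong peak.

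**Figure D2:**
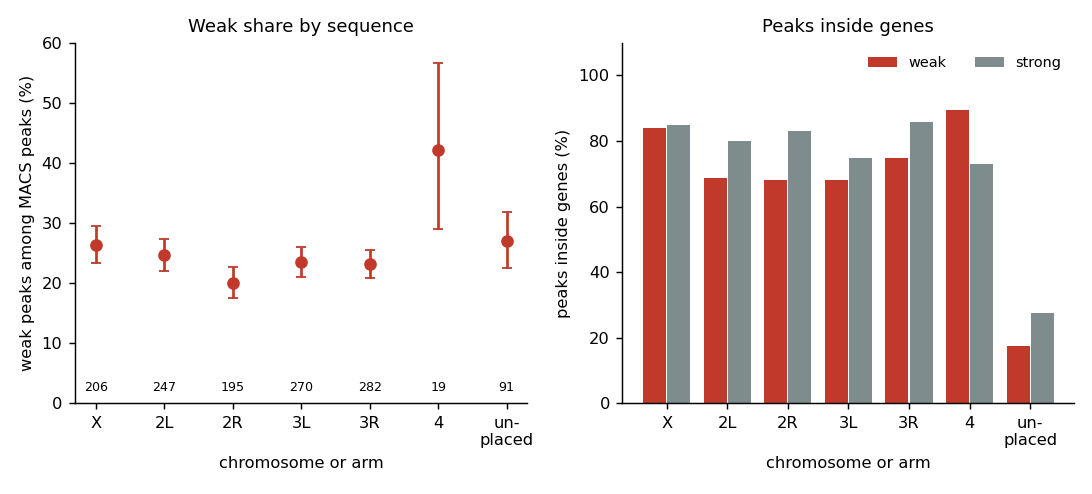
Left, weak peaks as a percentage of all MACS peaks of each chromosome or arm, with 95% Wilson intervals as bars and the number of weak peaks below. Right, the percentage of weak and of strong peaks that lie inside genes. Chromosome 4 stands highest on the left at 42.2%, and unplaced sequence lowest on the right at 17.6% of weak and 27.5% of strong peaks.

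By the gene names in the tables, 904 weak peaks lay inside genes (69.0%, interval 66.5% to 71.5%), against 78.3% of strong peaks (77.0% to 79.5%). Inside means that the peak is said to intersect a gene, also where it reaches past the end of the gene. Strong peaks are longer, with a median of 1106 bp against 514.5 bp, and can meet a gene more easily. The part of length in these shares was not tested. On X the 2 shares were close, 84.0% of weak peaks and 84.9% of strong peaks. On 2R they were farther apart, 68.2% and 83.0%, and on chromosome 4 the order turned, with 89.5% of 19 weak peaks and 73.1% of 26 strong peaks. Weak peaks inside more than 1 gene numbered 107 (8.17%), against 13.8% of strong peaks.

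On 2L the annotation gave the part of the gene. The centre of a weak peak fell in an intron in 39.1% of cases, between genes in 36.9%, in an exon outside coding sequence in 16.3% and in coding sequence in 7.73%. The centres of strong peaks fell in introns in 56.0%, between genes in 25.9%, in exons outside coding sequence in 12.8% and in coding sequence in 5.33%. Of the bases of 2L, 40.9% are intronic, 29.7% lie between genes, 10.4% are exonic outside coding sequence and 19.0% are coding. Coding sequence held a smaller share of the centres of weak and of strong peaks than of the bases of the arm.

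Peaks of genes bound weakly only and extra weak sites lay at different places. On 2L a weak peak covered a transcript start in 36 of 118 cases at genes bound weakly only (30.5%, interval 22.9% to 39.3%) and in 6 of 115 extra weak sites (5.22%, 2.41% to 10.9%). Strong peaks, which are longer, covered a start in 31.2% of cases. The share of windows of 2L that cover a start was not measured. The median distance from the centre of the peak to the nearest transcript start was 0.776 kb at genes bound weakly only, 4.67 kb for extra weak sites and 1.64 kb for strong peaks. Among the weak peaks over a start, chosen after their values were seen, were those at Rab6, a small GTPase of the Golgi (16.1 RPM), at hoip, a protein of the spliceosome (18.2 RPM), at Ent2, a nucleoside transporter (19.2 RPM), and at ade2, an enzyme of purine synthesis (11.9 RPM). All 4 genes were named by weak peaks only. This difference is tied in part to how the kinds are made. A gene at an extra weak site also has a strong peak, which can itself cover the start. A peak between genes names the genes on both sides, and 70.5% of such weak peaks were extra weak sites, against 47.7% inside genes. Gene length differed between the kinds as well, as given below. The part of each in this difference was not tested.

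Weak peaks lay farther from strong peaks than strong peaks lay from each other. The distance from positions in general to a strong peak was not measured. The median distance from a weak peak to the nearest strong peak was 11.4 kb, and that from a strong peak to the next strong peak 6.33 kb. A strong peak lay within 10 kb of 589 weak peaks (45.0%, interval 42.3% to 47.7%) and of 64.0% of strong peaks. Within 2 kb the shares were 4.73% and 16.4%. Weak peaks of genes bound weakly only were at a median of 18.4 kb from a strong peak, with 27.2% of them within 10 kb, whereas extra weak sites were at a median of 8.35 kb, with 59.7% within 10 kb. This difference is tied to how the kinds are made, since a strong peak near a weak one often names the same gene. Another weak peak lay within 10 kb of 335 weak peaks (25.6%), and 120 weak peaks (9.16%) lay farther than 50 kb from any strong peak.

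**Figure D3:**
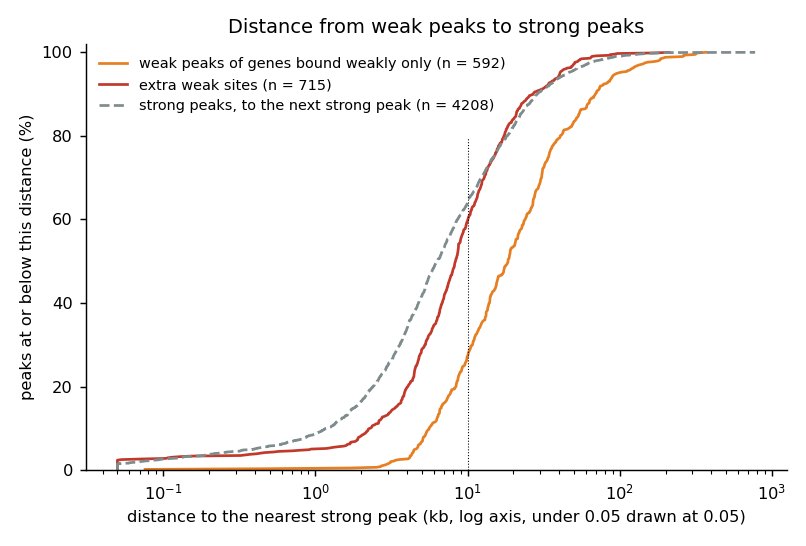
Cumulative percentage of peaks against the distance to the nearest strong peak in kb on a log axis, for 592 weak peaks of genes bound weakly only, 715 extra weak sites, and 4208 strong peaks measured to the next strong peak. The dotted line marks 10 kb, below which lie 27.2% of the weak peaks of genes bound weakly only, 59.7% of extra weak sites and 64.0% of strong peaks.

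In 8 cases (0.611%) a weak peak overlapped a strong peak, which covered 93.9% to 100% of it. These were the peaks at svr, r, CG17230 and PGRP-LB, tok, lms, pita and Dcp-1, shep, and CG41087 and CG40188. At r, for example, the weak peak had 17.1 RPM over 552 bp and the strong peak 48.8 RPM over 1532 bp, with a shared edge. The same stretch stands in both tables with other bounds, and these 8 weak peaks are no separate places. Qseq is the peak caller named in the study's methods, and its table, like that of strong peaks, holds no peak under 20 RPM, the limit under which weak peaks were chosen. The overlap is therefore partly fixed by that choice. Qseq had a peak over 79 weak peaks (6.03%, interval 4.87% to 7.45%), against 62.3% of strong peaks. The 79 weak peaks had a median of 18.2 RPM and the Qseq peaks over them 21.8 RPM.

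The weak peaks named 1408 genes. Of these 579 (41.1%, interval 38.6% to 43.7%) were named by a strong peak too, and 829 were bound weakly only, of which 773 (93.2%) were named in no other table. Bound here means named by a peak. A weak peak intersected 537 of the 829 and 338 of the 579, and the others were named only as neighbours of a weak peak between genes. Of 17684 genes of Release 6, 7.44% were named by a weak peak, 4.52% by weak peaks only, 2.91% by weak and strong peaks and 18.4% by a strong peak. By peak, 592 (45.2%) were at genes bound weakly only, 715 (54.6%) were extra weak sites, and 3 on unplaced sequence named no gene. The peaks of the 2 kinds were alike in size, with medians of 13.5 RPM and 511.5 bp at genes bound weakly only and 14.5 RPM and 522 bp for extra weak sites. They differed in place, since 79.9% of the peaks of genes bound weakly only lay inside genes, against 60.3% of extra weak sites. A peak between genes names the genes on both sides, and 70.5% of such weak peaks were extra weak sites, against 47.7% of those inside genes. On unplaced sequence 94.5% were extra weak sites, and there the name Su stands for more than 1 gene.

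Genes bound weakly only were of moderate length and those with both kinds of peak were long. The median length was 3.14 kb for genes bound weakly only, 19.98 kb for genes with weak and strong peaks, 4.58 kb for genes with strong peaks only and 1.71 kb for all genes. Among genes longer than 5.12 kb, which are the longest of 5 classes of like size, 8.09% were bound weakly only and 10.9% had both, so that counts over lists of long genes have to be read against these shares. Of the genes bound weakly only 94.9% were protein-coding, against 78.7% of all genes. The share was alike in the other genes with peaks, 95.1% with both kinds and 92.7% with strong peaks only. Most of the genes bound weakly only, 755 (91.1%), had a single weak peak, as did 71.2% of the genes with both kinds. Genes with both kinds had a single strong peak in 45.3% of cases, against 74.1% of genes with strong peaks only. Their highest strong peak was no stronger, with a median of 66.0 RPM in both groups. The nearest strong peak of the same gene lay at a median of 6.80 kb from the extra weak site.

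Most of the genes with the most weak peaks were long. kirre, an immunoglobulin adhesion protein of muscle founder cells that spans 394 kb on X, had 7 weak peaks, all inside the gene, at 8.31, 10.9, 11.4, 11.9, 14.0, 14.5 and 19.2 RPM, and 4 strong peaks of 21.8 to 156 RPM. The weak peak of 19.2 RPM also named w, the gene of white eyes. olf413 on 3L had 7 weak peaks of 8.83 to 19.7 RPM, 4 inside it and 3 beside it, and 3 strong peaks of 22.3 to 82.6 RPM. Rbp6, an RNA-binding protein gene of 179 kb, had 6 weak peaks in a narrow range of 13.0 to 15.6 RPM and 2 strong peaks of 29.6 and 46.7 RPM.

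luna, a Krüppel-like zinc finger factor, had 5 weak peaks of 9.87 to 18.7 RPM and 6 strong peaks of 29.1 to 144 RPM. mirr, a homeobox gene of the Iroquois complex, had 5 weak peaks of 10.4 to 17.1 RPM and 4 strong peaks of 37.4 to 277 RPM. Pvf3, a ligand of the PDGF and VEGF type, had 5 weak peaks of 8.31 to 19.7 RPM and 4 strong peaks of 21.8 to 125 RPM. CG15258 lies between esg and wor, which encode zinc finger factors of the Snail family in neuroblasts, and had 5 weak peaks, all outside the gene, of 12.5 to 17.7 RPM. CG7337 had 4 weak and 3 strong peaks, the highest at 319 RPM. CR40560 on unplaced sequence had 5 weak peaks of 8.83 to 19.2 RPM and 2 strong peaks of 23.4 and 57.1 RPM. CG40006 stood apart, with 5 weak peaks of 8.31 to 19.7 RPM and no strong peak, at 120 to 169 kb from the nearest strong peak. Of 72 genes with 3 or more weak peaks, 59 had a strong peak too.

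**Figure D4:**
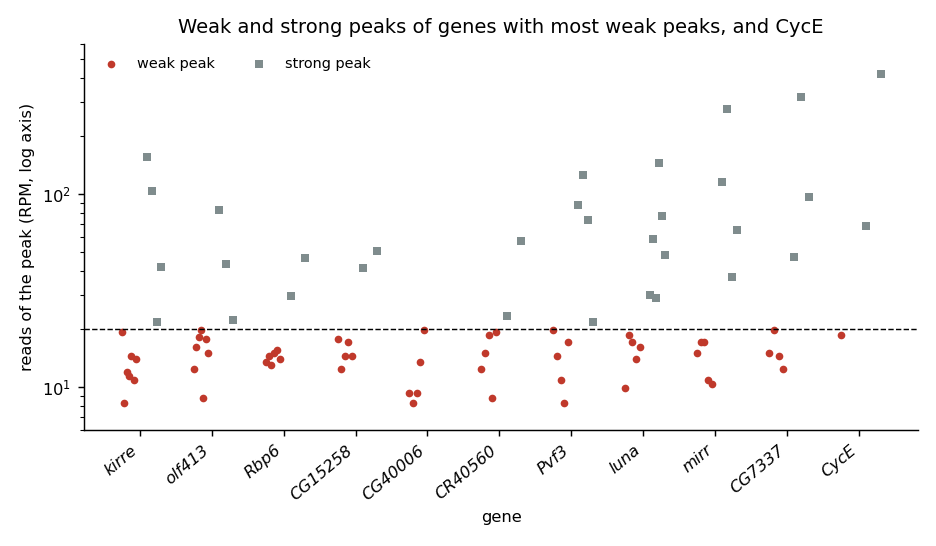
RPM on a log axis of each weak and each strong MACS peak of the 10 genes that most weak peaks name, and of CycE, with 1 point per peak and a dashed line at 20 RPM. CG40006 has weak peaks only, and CycE has 1 weak peak of 18.7 RPM below strong peaks of 68.6 and 418 RPM.

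Of the cell cycle genes the study followed, CycE alone had a weak peak. CycE encodes cyclin E, which drives entry into S phase, and its weak peak of 747 bp in an intron (2L, 15736047 to 15736793) held 18.7 RPM (interval 13.1 to 25.9). The strong peaks of CycE held 418 RPM inside the gene and 68.6 RPM beside it, and the nearer lay 8.64 kb from the weak peak. stg, the Cdc25 phosphatase of the G2 to M step, had no weak peak and 4 strong peaks of 26.5 to 97.1 RPM. E2f1, named E2f in the tables, had no weak peak and 7 strong peaks of 28.1 to 128 RPM, and dap, the inhibitor of cyclin E kinase, no weak peak and 2 strong peaks of 31.7 and 51.9 RPM. At the E(spl) complex itself, found by its cut name E on 3R, there was no weak peak and 7 strong peaks of 78.4 to 418 RPM. The 4 cell cycle genes and the complex were thus marked by strong peaks, with 1 weak peak in addition.

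Over 22 lists with 432 distinct genes, 115 genes (26.6%) were named by weak peaks, against 7.44% of all genes, and 32 of the 115 were bound weakly only. The listed genes are long, with a median of 8.94 kb against 1.71 kb for all genes, and 53.0% of them were named by strong peaks, against 18.4% of all genes. Over single lists the share named by weak peaks ran from 0% (germline) to 68.8% (temporal and Hox genes). No list was tested, and whether a share is particular to a list was not tested either.

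Lists of neural genes are given first. In the list of temporal and Hox genes 11 of 16 had a weak peak, 9 of them with strong peaks too. Ubx had 1 weak peak of 19.2 RPM in the gene and 3 strong peaks of 21.3 to 33.8 RPM, so that its weak peak was close in height to the strong ones. Antp had 3 weak peaks of 8.83, 16.1 and 19.2 RPM and 4 strong peaks of 20.3 to 79.5 RPM. Dfd and Scr, Hox genes of the head and first thorax, were bound weakly only, by 1 peak each inside the gene of 13.5 and 17.7 RPM. nub, a POU factor of neuroblast timing, had 1 weak peak of 18.7 RPM and strong peaks of 42.1 and 188 RPM, and svp, a nuclear receptor of the same series, had weak peaks of 13.0 and 19.7 RPM and a strong one of 79.5 RPM.

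Of 30 neuroblast regulators 10 had a weak peak, 7 with strong peaks too. D, a Sox factor, had 4 weak peaks of 10.9 to 17.1 RPM, all in the gap between Sox21b and D, where its strong peaks of 24.9 and 85.7 RPM lay as well. esg had 3 weak peaks of 12.5 to 19.2 RPM beside the gene, Dr, a homeobox gene of dorsal neuroblasts, 2 of 14.5 and 19.2 RPM, and scrib, a polarity gene, 2 of 16.1 and 18.2 RPM. The peaks of esg at 12.5 and 17.7 RPM are also among those given above for CG15258. gsb and gsb-n, neighbouring Pax genes, were bound weakly only, with 15.6 and 18.2 RPM. Qseq peaks named both, at up to 30.1 RPM. klu, a zinc finger gene of neuroblasts, had 1 weak peak of 9.35 RPM and no other peak in any table. Of 14 proneural and related genes only ato had a weak peak, of 12.5 RPM between CG9630 and ato.

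Of 26 genes of the Notch pathway 7 had a weak peak, 3 of them bound weakly only. Ser, a ligand of Notch, had 3 weak peaks of 15.1, 16.1 and 19.7 RPM, at 30.1 to 34.5 kb from the nearest strong peak. aph-1, a subunit of the secretase that cuts Notch, had 1 weak peak of 8.31 RPM over a transcript start, and nej, a histone acetyltransferase that serves as coactivator, 1 of 18.2 RPM, with a Qseq peak of 20.8 RPM naming it as well. N, the receptor, had 1 weak peak of 17.7 RPM in the gene and strong peaks of 25.5 and 69.6 RPM. mam, the coactivator of the Su(H) complex, had 1 weak peak of 17.7 RPM and strong peaks of 22.9 and 25.5 RPM. Qseq named mam by 4 peaks, the highest at 617 RPM. For fng, which modifies Notch, there was 1 weak peak of 11.9 RPM below strong peaks of 74.3 and 115 RPM. Tom, a Bearded family gene, had 1 weak peak of 10.4 RPM toward BobA.

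Genes of neurons and glia were also among them. Of 33 neural adhesion genes 11 had a weak peak, and all 11 had a strong peak too. Besides kirre these include kek5 with 3 weak peaks of 9.87 to 18.2 RPM, ed with 2 of 13.5 and 18.2 RPM and trn with 1 of 19.2 RPM. Of 26 genes of ion channels and the synapse 10 had a weak peak and 4 were bound weakly only. These 4 are the potassium channel genes SK (14.5 RPM), Sh (13.5 RPM) and Shab (10.4 RPM) and the calcium channel gene Ca-alpha1D (13.5 RPM), all but Shab with the peak inside the gene. Ca-beta, a subunit of calcium channels, had a weak peak of 19.2 RPM at 1.62 kb from a strong peak, and elav, an RNA-binding protein of neurons, 1 of 14.0 RPM below a strong peak of 181 RPM.

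In axon guidance 8 of 30 genes had a weak peak, 2 of them bound weakly only, namely Ank2 (11.4 RPM) and Sema-2b (8.31 RPM). comm, which sorts the receptor Robo, had 3 weak peaks of 14.0 to 17.7 RPM in the gap to CG6244. Of 11 glial genes 3 had a weak peak. gcm2, the partner gene of glial cells missing, had 2 weak peaks of 11.4 and 15.6 RPM in the gap to CG4382, and repo, a homeobox gene of glia, 1 of 9.35 RPM. Both were bound weakly only. pnt, an ETS factor, had 2 weak peaks of 15.6 and 17.7 RPM among 8 strong peaks of 49.3 to 307 RPM.

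The counts of the other tissues and pathways were as follows. In mesoderm and muscle 8 of 16 genes had a weak peak, with lbl (12.5 RPM) and nau, a MyoD family gene (13.5 RPM), bound weakly only, and Mef2 with 16.6 RPM beside strong peaks of 42.6 and 60.8 RPM. In the trachea 4 of 9 had one, all with strong peaks too, such as vvl, a POU factor, with 3 weak peaks of 8.83 to 16.6 RPM and 10 strong peaks of 22.9 to 92.5 RPM. In gut and GATA genes 4 of 10 had one, and GATAe (15.6 RPM) was bound weakly only. Of 22 nuclear receptor and ecdysone genes 8 had a weak peak. Eip75B had 3 of 10.4 to 18.7 RPM and 7 strong peaks of 26.0 to 166 RPM, and Hr38 had 2 weak peaks of 11.9 RPM each and no strong peak. Qseq named Eip75B by 8 peaks, the highest at 1038 RPM.

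In the wingless pathway 6 of 19 genes had a weak peak. Wnt6 had 3 of 13.5, 14.5 and 15.6 RPM, and Wnt10 shares that of 13.5 RPM, since it lies between both genes. Both were bound weakly only. The weak peak of 19.2 RPM between Wnt4 and wg began 0.107 kb from a strong peak of 26.5 RPM. Of 12 genes of the hedgehog list 3 had a weak peak, with hh, the ligand, bound weakly only by peaks of 11.9 and 18.2 RPM, and en, a homeobox gene, with 3 weak peaks of 9.35 to 19.7 RPM and 5 strong peaks of 21.8 to 42.6 RPM. The weak peak of 9.35 RPM lies between inv and en and counts for both. The EGFR list had 6 of 18, all with strong peaks too, and the Dpp list 2 of 17, namely Dad, an inhibitory Smad (18.7 RPM), and wit, a receptor (18.7 RPM). Of 21 chromatin genes 4 had a weak peak, among them pho on chromosome 4 with 7.27 RPM and its relative phol with 17.7 RPM, the second bound weakly only.

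Genes used in all cells were listed as well. Of 39 cell cycle genes 4 had a weak peak, and besides CycE these were Rbf, the Retinoblastoma family protein (13.5 RPM in the gene), ial, the kinase Aurora B (17.1 RPM), and CycH (19.2 RPM in the gap to eg), all 3 bound weakly only. Of 10 cell death genes 3 had one, and Nc, the initiator caspase Dronc, was bound weakly only with 17.1 RPM. The weak peak of Dcp-1, counted here, is among the 8 that overlap a strong peak and is no separate place. Of 20 insulin and TOR genes Pdk1 had a weak peak of 19.7 RPM. Of 32 ribosomal protein genes 5 had a weak peak and 3 a strong peak, and 4 were bound weakly only. These are RpL14 and RpS20 (18.2 RPM each), RpL13 (15.1 RPM) and RpL32 (10.4 RPM), all short genes of 0.933 to 1.39 kb. None of 9 germline genes had a weak peak.

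**Figure D5:**
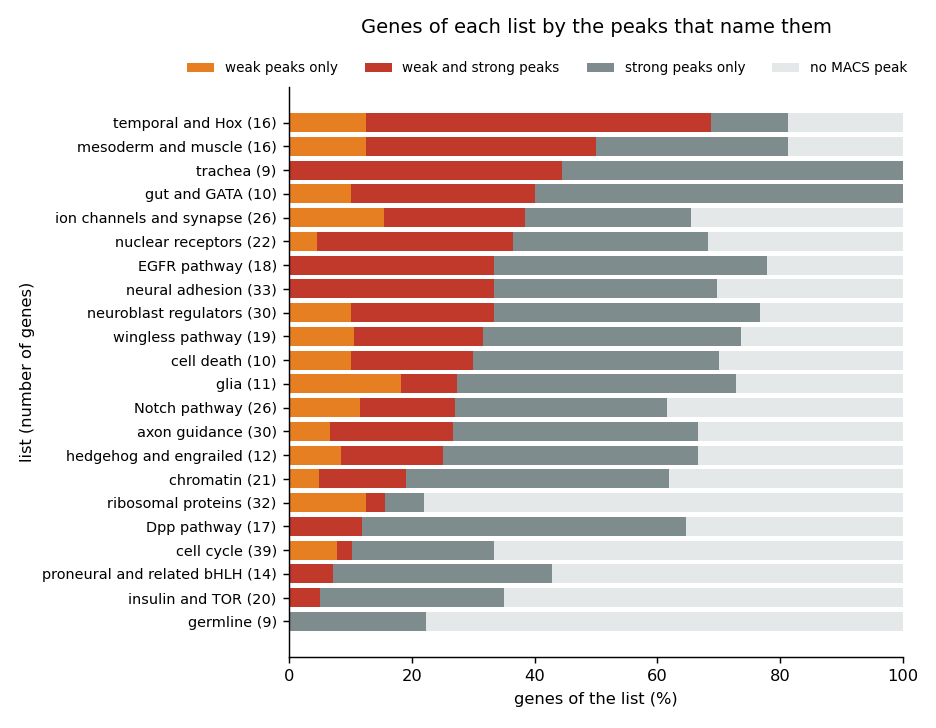
Percentage of the genes of each of 22 lists that are named by weak MACS peaks only, by weak and strong peaks, by strong peaks only or by no MACS peak, with the number of genes of the list in brackets. Temporal and Hox genes stand at the top with 11 of 16 named by a weak peak, and the germline list at the bottom with 0 of 9.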

How the data were processed

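DNA of m8 DamID embryos was sequenced by the study as single reads. The methods name DNASTAR SeqMan NGen for assembly of the reads and dm6 for display in a genome browser, and the submitters' notes list dm6. The authors scaled the reads of each peak to 1000000 reads of the library, which is the deposited RPM. A deposited count of reads stands beside the RPM in a Qseq table alone, and the ratio of both gave a total of 1925156 reads from its peaks to within rounding (1925113 to 1925193). With this total every weak and every strong MACS peak came to a whole number of reads to within 0.01 reads. In place of a p-value the deposited MACS column has a score, at least 50, which was not used, and in 2 cells of each table the authors' score had turned into a date. For MACS no version was given, and of its settings only a cut in the name of each table, 25 for weak and 20 for strong peaks.

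The table column was matched to the un-driven m8 DamID by its name, and 0 columns of samples were left unmatched. The other 5 conditions were not analysed here. Weak and strong peaks were compared by shares, medians and distances (edge to edge), with 95% Wilson and exact Poisson intervals and no test, since the tables hold 1 library. Gene names were split at commas and semicolons, and 1330 of 1408 names (94.5%) matched a gene of Release 6. Sequence and annotation of RefSeq, Release 6, were used on 2L below 22 Mb. The scripts were tested on simulated data.

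The members and lists were chosen with earlier results of these data known. Named are up to 4 genes per list and kind by highest weak RPM, the 10 genes with most weak peaks, peaks at the ends of the RPM range, the cell cycle genes of the study with the E(spl) complex, and for sequences 3 peaks of each kind on 2L. The alternatives were other gene names, tables, RPM limits, distances, overlaps and sequence sets. The software was Python 3.11.15 with scipy 1.17.1, numpy 2.4.6, matplotlib 3.10.9 and pandas 2.3.3.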

Additional observations from a re-analysis of the deposited data

How the results depend on the processing

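Of 19 alternatives, 1 of them chosen after seeing the data, 11 stayed within the counting interval of the value or within 1.5 times the count, and 8 moved. The share of weak-named genes that a strong peak names too was 41.1%, and 34.3% with the intersected genes alone and 36.9% with Qseq peaks as the stronger table. Without the 8 weak peaks that overlap a strong peak it was 40.7%, the alternative added after seeing the data. The share of weak peaks inside genes was 72.6% on the 5 large chromosome arms, where unplaced sequence is left out. The median length was 450 bp for weak peaks under 15 RPM. The share of weak peaks near a strong peak was 4.73% within 2 kb, 90.8% within 50 kb and 40.7% within 10 kb centre to centre. GATC stood at 3.15 sites per kb once the peaks were widened by 500 bp on each side. The count of listed genes with a weak peak was 115, and 77 with intersected genes alone. No paired analysis was possible because a single library of 1 group was at hand, so that no replicate could be left out either. At 13 to 38 reads a peak, a difference between single weak peaks is mostly within their counting intervals, and the limit of 20 RPM itself lies inside the intervals of peaks on both sides of it.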
